A study of Oryctolagus cuniculus with 8 samples.

Results

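The proteases that cut and remodel the extracellular matrix, together with their tissue inhibitors, were compared between stem cells of the infrapatellar fat pad (IPFSCs) and of subcutaneous fat (ScASCs). Genes were taken by symbol as matrix metalloproteases (MMP), tissue inhibitors of metalloproteases (TIMP), ADAMs, ADAMTS proteases, ADAMTS-like proteins (ADAMTSL), cathepsins (CTS) and HTRA serine proteases. This gave 74 of the 20586 genes listed, of which 18 are MMPs, 3 TIMPs, 18 ADAMs, 18 ADAMTS, 3 ADAMTSL, 11 cathepsins and 3 HTRA genes. Family members without such a symbol in the table, MMP14, TIMP2, CTSD and CTSL among them, were not analysed here.

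RNA-seq was done on cells grown from inguinal subcutaneous fat (ScASC) and from the fat pad behind the patellar tendon (IPFSC) of 4 New Zealand white rabbits, which were male and 4 months old. Both tissues were minced, digested with collagenase and cultured in the same serum-containing growth medium, and neither cell type carried a genetic change or received a differentiation stimulus. RNA was taken at passage 1 from cultures for which no sorting of cells is described, and each rabbit gave 1 library of each kind (n = 4 in either group). The comparison asks how the cells of the joint fat pad differ from those of subcutaneous fat before any differentiation.

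MMPs are zinc proteases made as inactive proenzymes. They include collagenases, which cut fibrillar collagen, gelatinases, stromelysins and the membrane-type enzymes. ADAMs are membrane-bound and shed growth factors, cytokines and receptors from the cell surface, whereas ADAMTS enzymes are secreted and process procollagen, aggrecan, versican and microfibrils. TIMPs bind the active site of MMPs and of some ADAMs and ADAMTS enzymes. Cathepsins work mainly in lysosomes, although several are secreted and degrade matrix. In the joint, collagenase 3 (MMP13) and the aggrecanases ADAMTS4 and ADAMTS5 are known for the breakdown of cartilage.

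Values are RPKM, that is read counts scaled to gene length and to the mapped reads of a library, which allow levels of different genes to be compared. Sequencing depth relative to the deepest library was 0.825 to 1.00, and from 14056 to 14346 genes were above 0 in a library. No pair of libraries was identical. All 9 stromal markers with a symbol lay above a mean of 1 RPKM. Their summed level was 11275 to 16778 RPKM in ScASCs and 6760 to 10392 in IPFSCs, most of it COL1A1, COL1A2 and COL3A1, whereas LUM had means of 191 and 527 RPKM (log2 fold change 1.596, adjusted p = 0.0575 in limma and 0.00902 with the rabbit as a block). Some marker lists of other cells separated the groups at low levels. Skeletal muscle markers summed to 0 to 0.0304 RPKM in ScASCs and 0.303 to 0.759 in IPFSCs (mostly DES, adjusted p = 0.0132 without a filter on low RPKM). CLIC5, the 1 synovial lining marker found, was listed at 0 in all ScASC libraries and at 0.349, 0.437, 0.271 and 0.237 RPKM in IPFSC libraries 1 to 4 (adjusted p = 0.00526 without that filter). Chondrocyte markers summed to 33.0 to 43.7 RPKM in ScASCs and 29.8 to 64.4 in IPFSCs, and adipocyte markers to 0.860 to 21.8 and 2.80 to 7.20. The part of such cells in the results was not tested. Endothelial markers summed to at most 0.0770 RPKM in any library and epithelial markers to at most 0.619. Of the 7 macrophage and osteoclast markers found, PTPRC and CD163 were listed at 0 in all libraries, and only CD68, a lysosomal protein of macrophages and other cells, exceeded a mean of 1 RPKM. The 74 genes together took 0.771% to 0.961% of the summed RPKM of a library. In bulk RNA, a lower level may come from fewer cells that express a gene or from less RNA in each cell, and these cannot be told apart.

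The families differed widely in level and little between the cell types. Cathepsins and TIMPs were the most abundant, with summed levels of 1371 ± 245 and 937 ± 211 RPKM in the ScASC libraries and of 1401 ± 285 and 1086 ± 73.4 in the IPFSC libraries (SD, n = 4). MMPs summed to 517 ± 85.5 RPKM in ScASCs and 607 ± 33.7 in IPFSCs. ADAMs summed to 467 ± 22.8 and 405 ± 41.4 RPKM, HTRA genes to 272 ± 41.8 and 274 ± 44.8, and ADAMTS genes to 246 ± 33.1 and 230.4 ± 26.5. The 3 ADAMTS-like genes stood apart, with 128 to 216 RPKM in the ScASC libraries and 53.1 to 118 in the IPFSC libraries, and no overlap. ADAMTSL1 made up most of this sum. These sums leave out MMP14, TIMP2, CTSD and CTSL. They run over genes chosen with earlier results known and were not tested.

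**Figure D1:**
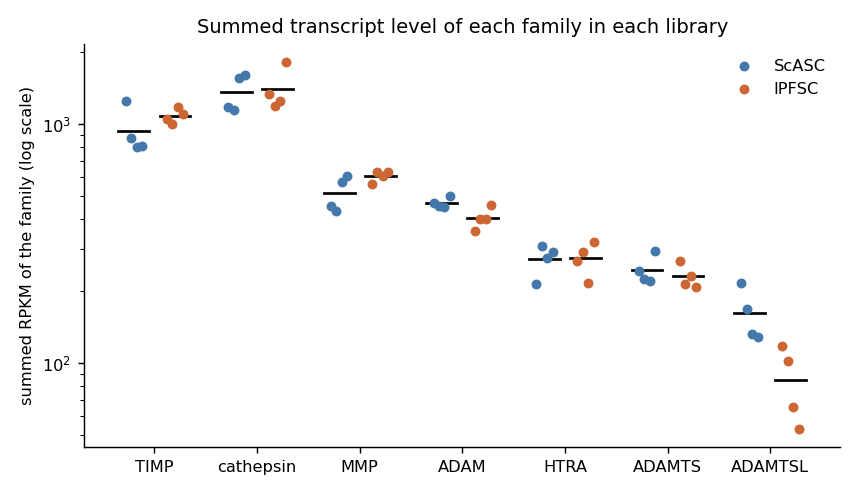
Summed RPKM of each family (log axis) in each of the 8 libraries, with 1 point per library and a bar at the mean of 4. The ScASC and IPFSC points overlap in every family but ADAMTSL, where the IPFSC libraries lie at 53.1 to 118 and the ScASC libraries at 128 to 216.

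A few genes carried most of the summed level of the MMPs, TIMPs and cathepsins analysed. These shares leave out MMP14, TIMP2, CTSD and CTSL and are not shares of the whole families. MMP2 (gelatinase A) held 88.3% ± 4.93 of the summed MMP level in ScASCs and 88.6% ± 2.85 in IPFSCs (SD, n = 4). TIMP1 held 82.9% ± 5.13 and 76.1% ± 8.16 of the TIMP level. CTSK, the collagen-degrading cathepsin best known from osteoclasts, and CTSV together held 71.0% ± 0.731 of the cathepsin level in ScASCs and 68.1% ± 1.37 in IPFSCs. Over all 8 libraries, 10 of the 74 genes had a mean above 100 RPKM, 18 lay between 10 and 100, 18 between 1 and 10, and 22 at or below 1 but above 0. The other 6, ADAM6, ADAM30, ADAMTS18, CTSG, MMP8 and MMP20, were listed at 0 in every library. TIMP1 ranked 63 among all genes by mean level, CTSK ranked 97 and MMP2 ranked 122.

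**Figure D2:**
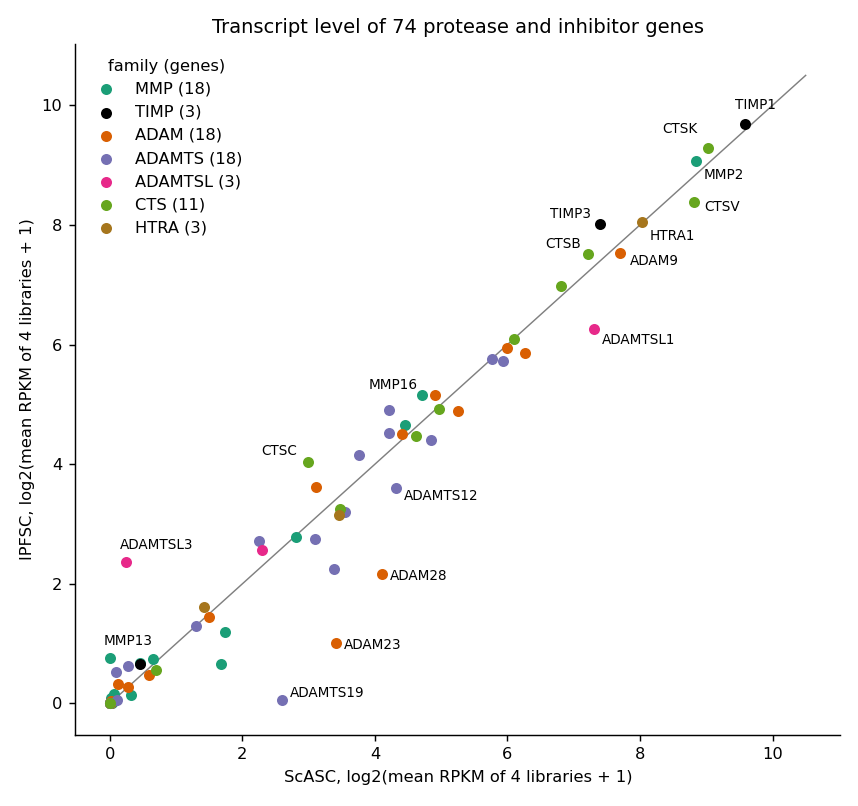
Mean level of each of the 74 genes in ScASCs (horizontal) and IPFSCs (vertical), both as log2(mean RPKM of 4 libraries + 1), coloured by family, with the grey line at equal levels. Most genes lie near the line. ADAMTSL3, CTSC and MMP13 lie above it, and ADAM23, ADAM28, ADAMTS12, ADAMTS19 and ADAMTSL1 below it.

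Between the cell types, ADAMTSL3 and CTSC rose in IPFSCs, and ADAM23, ADAM28, ADAMTS12 and, in the fit without the rabbit, ADAM17 fell. The 46 genes with a mean above 1 RPKM in at least 1 cell type were tested with limma on log2(RPKM + 1) over all 8 libraries, with p-values adjusted over all 11294 genes that passed this filter. Fold changes are IPFSCs over ScASCs on this scale, where those of genes near 0 come out too small, and an adjusted p under 0.05 made a call. Thus 2 of 46 rose and 4 of 46 fell. Of all genes tested, 2.67% rose and 2.31% fell. The median log2 fold change was −0.01 over the 46 genes and 0.00 (−0.0035) over all genes tested. The study's criteria add a fold change above 2, taken here from limma on this scale and not from edgeR. By these criteria 2 rose and 2 fell (background 1.61% and 1.25%). With the replicate number as a block for the rabbit, ADAM17 was no longer called (adjusted p = 0.0587) and ADAMTSL1 and ADAMTS19 were added (0.00456 and 0.0400), so that 2 rose and 5 fell at an adjusted p under 0.05 (background 4.31% and 3.74%), and by the study's criteria 4 fell (background 1.57%). Without the filter on low RPKM, which is itself among the study's criteria, 2 rose and 3 fell (background 1.91% and 1.53%). With a fold change above 2 added, 2 rose and 1 fell in that fit (background 1.01% and 0.770%). Of the 68 genes above 0 in at least 1 library, all 4 IPFSC libraries lay above all 4 ScASC libraries for 5 genes and below them for 7, against 5.25% and 4.45% of all genes above 0.

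**Figure D3:**
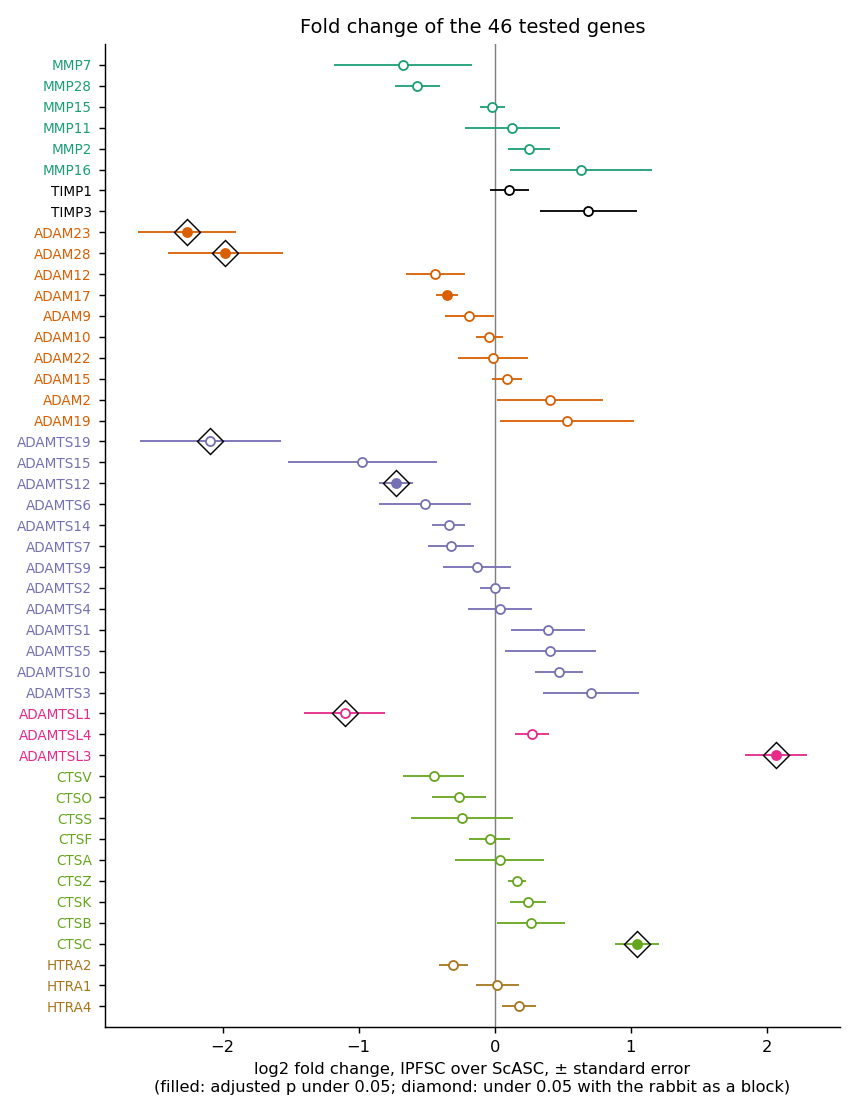
Log2 fold change (IPFSCs over ScASCs, on log2(RPKM + 1), ± standard error) of the 46 tested genes, coloured and grouped by family, where filled points have an adjusted p under 0.05 and diamonds mark an adjusted p under 0.05 with the rabbit as a block. The largest changes lie among ADAM, ADAMTS and ADAMTSL genes, and no MMP, TIMP or HTRA gene was called.

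Of the MMPs, none of the 6 tested passed the test in limma, and 1 of them, MMP28, had an unadjusted p under 0.05. The collagenases were nearly silent. MMP13, which cuts type II collagen, was listed at 0 in all 4 ScASC libraries and at 0.0348, 0.399, 1.18 and 1.17 RPKM in IPFSC libraries 1 to 4. The cell types thus did not overlap, but IPFSC library 1 lay close to 0. The mean of MMP13 (ENSOCUG00000002481) in IPFSCs, 0.696 RPKM, was under the filter, and in the fit without a filter on low RPKM its adjusted p was 0.179 in limma. Adding 1 before the log2 shrinks differences between levels this low, so this fit cannot show that MMP13 is alike in both cell types. The study reported MMP13 as much higher in IPFSCs, both in its own RNA-seq test and by quantitative PCR of cell pellets before induction. MMP1, the interstitial collagenase, was listed at 0 in 4 of the 8 libraries and at 0.0568 to 0.388 RPKM in the others, with the highest value in IPFSC library 4. MMP8, the neutrophil collagenase, was at 0 throughout.

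The gelatinases were split between an abundant and a scarce enzyme. MMP2 (ENSOCUG00000006714) stood at 377, 371, 537 and 550 RPKM in ScASC libraries 1 to 4 and at 474, 557, 552 and 570 in IPFSC libraries 1 to 4. The ScASC libraries fell into a lower pair and a higher pair, and the higher pair overlapped the IPFSC range. Its log2 fold change was 0.25 (95% interval −0.10 to 0.60, adjusted p = 0.504 in limma). MMP9 (gelatinase B), known mainly from leukocytes and osteoclasts, stayed at 0.372 ± 0.215 RPKM in ScASCs against 0.601 ± 0.333 in IPFSCs (SD, n = 4) and did not reach the filter.

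Of the other MMPs, the stromelysin-like MMP11 and the membrane-type MMP16 were the most abundant after MMP2. MMP11, which is activated inside the cell by furin, stood at 21.0 ± 7.97 RPKM in ScASCs and 24.1 ± 11.3 in IPFSCs (adjusted p = 0.936 in limma). MMP16 spread widely, with 42.4, 37.2, 8.86 and 11.9 RPKM in ScASC libraries 1 to 4 and 40.0, 50.2, 29.7 and 18.0 in the IPFSC libraries. The ranges overlapped, and libraries 1 and 2 were higher than 3 and 4 in both cell types (log2 fold change 0.63, adjusted p = 0.672 in limma). MMP15, another membrane-type enzyme, differed little, at 5.98 ± 0.529 and 5.88 ± 0.143 RPKM, and the interval of its log2 fold change ran from −0.22 to 0.19. MMP28 (epilysin) was lower in all 4 IPFSC libraries, with 2.43, 2.03, 2.41 and 2.43 RPKM in ScASCs and 1.47, 1.39, 0.633 and 1.604 in IPFSCs, but was not called (log2 fold change −0.57, adjusted p = 0.102 in limma). The matrilysin MMP7 reached 6.43 RPKM in ScASC library 1 and lay between 0.242 and 1.52 in the other 7 libraries. It was not called, with an adjusted p of 0.626 in limma.

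In the rabbit assembly mOryCun1.1 the secreted MMP genes MMP7 and MMP20 are direct neighbours. MMP27, MMP8, MMP10, MMP1, MMP3, MMP12 and MMP13 are also neighbours, in this order. How these stretches are placed relative to each other was not examined. These 9 genes, which hold the collagenases, the stromelysins MMP3 and MMP10 and the macrophage elastase MMP12, summed to only 7.39, 1.08, 0.590 and 2.36 RPKM in ScASC libraries 1 to 4. In the IPFSC libraries the sum was 2.25, 1.39, 1.96 and 2.89 RPKM. The cell types overlapped, and MMP7 made up most of the high value of ScASC library 1. MMP3 lay at 0.571 ± 0.341 RPKM in ScASCs against 0.676 ± 0.420 in IPFSCs (SD, n = 4), and MMP10 and MMP12 did not exceed 0.122 RPKM in any library. Of the MMPs outside these 9 genes, MMP21, MMP24 and MMP26 did not exceed 0.295 RPKM.

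TIMP1 and TIMP3 were among the most abundant genes of the set, and neither passed the test. TIMP1 is a secreted inhibitor of most soluble MMPs. It stood at 941, 761, 681 and 692 RPKM in ScASC libraries 1 to 4 and at 697, 766, 894 and 952 in IPFSC libraries 1 to 4. The ranges overlapped almost fully (log2 fold change 0.11, 95% interval −0.21 to 0.43, adjusted p = 0.832 in limma). TIMP3 (ENSOCUG00000008310) is held in the matrix and also inhibits ADAM17 and the aggrecanases. Its level was 308, 117, 124 and 121 RPKM in ScASCs and 356, 241, 284 and 152 in IPFSCs. It was higher in the IPFSC library of all 4 rabbits, but ScASC library 1 lay above 3 of the 4 IPFSC libraries. The log2 fold change of TIMP3 was 0.69 ± 0.359 (SE), with an adjusted p of 0.416 in limma. With the rabbit as a block the SE was 0.181 and the adjusted p 0.0770. Over the 13 fits run the adjusted p of TIMP3 ranged from 0.0712 to 0.674. TIMP4 was scarce, at 0.372 ± 0.269 RPKM in ScASCs and 0.578 ± 0.209 in IPFSCs, and was not tested.

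The ratio of summed MMP to summed TIMP level was 0.363, 0.494, 0.710 and 0.746 in ScASC libraries 1 to 4 and 0.532, 0.626, 0.514 and 0.572 in the IPFSC libraries. The mean ratios, 0.578 ± 0.182 and 0.561 ± 0.0498, lay closer together than the spread of the ScASC libraries. These ratios leave out MMP14 and TIMP2 and were not tested.

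The ADAMs gave 3 of the 4 genes that fell. Of 10 ADAMs tested, 3 were lower in IPFSCs (2.31% of all genes), none was higher and 7 were not called. With the rabbit as a block 2 were lower, ADAM23 and ADAM28 (3.74% of all genes). ADAM23 has no zinc-binding active site and takes part in cell adhesion through integrins. ADAM23 (ENSOCUG00000010659) stood at 14.5, 7.79, 12.6 and 3.48 RPKM in ScASC libraries 1 to 4 and at 1.48, 1.03, 0.821 and 0.730 in IPFSC libraries 1 to 4. Every IPFSC library lay below every ScASC library, although ScASC library 4 was much lower than the others. The log2 fold change was −2.26 ± 0.361 (SE, adjusted p = 0.00959 in limma), and ADAM23 was called in all 13 fits, with adjusted p from 0.00194 to 0.0357.

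ADAM28, a protease first known from lymphocytes, followed the same direction. ADAM28 (ENSOCUG00000004176) stood at 25.9, 18.1, 8.51 and 12.2 RPKM in ScASCs and at 4.15, 6.50, 1.88 and 1.40 in IPFSCs. The groups did not overlap, but the gap between the lowest ScASC and the highest IPFSC library was small. Its log2 fold change was −1.98 ± 0.423 (SE, adjusted p = 0.0324 in limma), and 0.00456 with the rabbit as a block. The call was lost without ScASC library 1, 2 or 4 (adjusted p = 0.0649, 0.0989 and 0.0671), without IPFSC library 1, 3 or 4 (0.0657, 0.103 and 0.0625), and without the filter on low RPKM (0.0520), the whole range over the fits being 0.00456 to 0.103.

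ADAM17 (ENSOCUG00000010474), the sheddase of tumour necrosis factor and of ligands of the epidermal growth factor receptor, differed by little. It stood at 35.7, 35.4, 35.5 and 41.3 RPKM in ScASCs and at 29.5, 30.8, 27.4 and 27.4 in IPFSCs. All IPFSC libraries lay below all ScASC libraries. The log2 differences within the pairs were unequal, at −0.27, −0.19, −0.36 and −0.57 in libraries 1 to 4. Its log2 fold change was −0.35 ± 0.0817 (SE, adjusted p = 0.0474 in limma). With the rabbit as a block the adjusted p was 0.0587, and without any 1 of the 8 libraries it was 0.0645 to 0.144, so that the call was lost in each of these fits. Over all 13 fits it ranged from 0.0461 to 0.144.

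The most abundant ADAMs were not called. ADAM9 stood at 206 ± 31.2 RPKM in ScASCs against 184 ± 49.1 in IPFSCs (SD, n = 4), where library 4 reached 257 and the other 3 lay between 157 and 160.1. ADAM12 (meltrin alpha), expressed in muscle and fat precursors, had 76.1 ± 14.6 and 57.0 ± 16.3 RPKM (adjusted p = 0.390 in limma). ADAM10, the main sheddase of Notch receptors, had 62.6 ± 7.21 and 60.6 ± 3.76 RPKM, and the interval of its log2 fold change ran from −0.26 to 0.18. ADAM19 (meltrin beta) varied among the ScASC libraries from 8.65 to 62.8 RPKM, a range that held all 4 IPFSC libraries. Of the other tested ADAMs, ADAM15 lay at 18.0 to 25.2 RPKM, ADAM22 at 0.754 to 2.89 and ADAM2 at 4.55 to 22.5 over the 8 libraries, all with overlap. The 8 ADAMs under the filter (ADAM6, ADAM7, ADAM8, ADAM11, ADAM18, ADAM21, ADAM30 and ADAM33) did not exceed 0.600 RPKM in any library.

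Of 13 ADAMTS genes tested, ADAMTS12 fell (2.31% of all genes fell), and 12 were not called. ADAMTS12 (ENSOCUG00000006357) cleaves cartilage oligomeric matrix protein. Its level was 19.6, 17.7, 16.7 and 21.8 RPKM in ScASC libraries 1 to 4 and 12.3, 12.8, 9.55 and 9.82 in IPFSC libraries 1 to 4. The groups were clearly apart, with little spread in either. In log2 terms the fold change was −0.72 ± 0.125 (SE, adjusted p = 0.0134 in limma), and all 13 fits called it, with adjusted p from 0.0120 to 0.0464. Its closest relative, ADAMTS7, had 7.53 ± 1.94 RPKM in ScASCs and 5.74 ± 0.815 in IPFSCs and was not called (adjusted p = 0.423).

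ADAMTS19 (ENSOCUG00000008329) was expressed in ScASCs and nearly silent in IPFSCs. It stood at 1.63, 3.07, 1.43 and 14.0 RPKM in ScASCs and at 0.0841, 0.0146, 0.0273 and 0.0428 in IPFSCs. All IPFSC libraries were near 0, and ScASC library 4 lay far above the other 3. On log2(RPKM + 1) its fold change was −2.09 ± 0.518 (SE), with an adjusted p of 0.0573 in limma. With the rabbit as a block it was called (0.0400), as with a pseudocount of 0.1 (0.00723, log2 fold change −4.56) and without ScASC library 4 (0.0116, log2 fold change −1.51). Over the 13 fits the adjusted p ranged from 0.00723 to 0.144.

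The aggrecanases and their relatives were not called in any direction. ADAMTS5, a main aggrecanase of cartilage, stood at 32.6, 11.97, 11.8 and 13.4 RPKM in ScASCs and at 30.2, 14.6, 23.4 and 19.95 in IPFSCs. ScASC library 1 was as high as IPFSC library 1, and the log2 fold change was 0.41 (95% interval −0.35 to 1.17, adjusted p = 0.668 in limma). With the rabbit as a block the adjusted p of ADAMTS5 was 0.210. ADAMTS4, the other main aggrecanase, was low in both cell types, at 1.45 ± 0.703 and 1.46 ± 0.439 RPKM (SD, n = 4). ADAMTS1, the neighbour of ADAMTS5 in mOryCun1.1, had 12.5 ± 4.45 and 16.9 ± 6.03 RPKM (adjusted p = 0.588). At the protein level, which is not measured here, the study's proteomics reported ADAMTS5 and ADAMTS1 as significantly higher in IPFSCs. ADAMTS9, which cleaves versican, lay at 37.5 to 95.8 RPKM in ScASCs, with the highest value in library 4, and at 47.4 to 60.4 in IPFSCs. ADAMTS15 lay at 2.34 to 19.9 RPKM in ScASCs and 1.63 to 5.74 in IPFSCs (adjusted p = 0.460).

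The procollagen N-peptidases, which trim fibrillar procollagens, were well expressed in both cell types. ADAMTS2 had the same mean, 53.3 ± 6.26 RPKM in ScASCs and 53.3 ± 5.45 in IPFSCs, and the 95% interval of its log2 fold change ran from −0.24 to 0.25. ADAMTS3 had 17.4 ± 7.21 and 29.1 ± 12.5 RPKM (adjusted p = 0.382), and ADAMTS14 had 10.7 ± 1.43 and 8.24 ± 0.925 (adjusted p = 0.185 in limma). ADAMTS6 and ADAMTS10, both linked to fibrillin microfibrils, went in opposite directions without a call. ADAMTS6 had 27.7 ± 6.51 and 20.2 ± 8.11 RPKM (adjusted p = 0.550), and ADAMTS10 had 3.78 ± 1.02 and 5.59 ± 1.13 (adjusted p = 0.218). Of the 5 ADAMTS genes under the filter, ADAMTS17 was higher in every IPFSC library, with 0.0188, 0.0910, 0.0567 and 0.114 RPKM in ScASCs and 0.367, 0.128, 0.456 and 0.799 in IPFSCs. In the fit without the filter on low RPKM the adjusted p of ADAMTS17 was 0.153. ADAMTS20 reached at most 0.850 RPKM, and ADAMTS8, ADAMTS16 and ADAMTS18 at most 0.153.

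The ADAMTS-like proteins share the accessory domains of ADAMTS enzymes but have no protease domain, and they bind the matrix. Of their 3 genes, ADAMTSL3 rose and the others were not called without the block. ADAMTSL3 (ENSOCUG00000002672) stood at 0.0356, 0.311, 0.229 and 0.173 RPKM in ScASC libraries 1 to 4 and 6.72, 2.57, 3.85 and 3.52 in IPFSC libraries 1 to 4. The gene was thus nearly silent in every ScASC library and expressed in every IPFSC library. This gave a log2 fold change of 2.07 ± 0.227 (SE, adjusted p = 0.00234 in limma), and all 13 fits called it, with adjusted p from 0.0017 to 0.0107.

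ADAMTSL1 (ENSOCUG00000004895), also named punctin, was far more abundant. It stood at 212.5, 165, 128 and 124 RPKM in ScASCs and at 107, 93.9, 56.6 and 44.2 in IPFSCs. No IPFSC library reached the lowest ScASC library, and in both cell types the level was highest in library 1 and lowest in library 4. This corresponded to a log2 fold change of −1.10 ± 0.295 (SE), with an adjusted p of 0.0772 in limma, and with the rabbit as a block ADAMTSL1 was called (0.00456). Over the 13 fits the adjusted p ranged from 0.00456 to 0.204. The block was the only fit that called ADAMTSL1 and also the only fit that used the pairing by rabbit. For the protein, the study's proteomics reported a much higher ADAMTSL1 level in ScASCs. ADAMTSL4, a microfibril-associated protein of the eye's suspensory fibres, had 3.92 ± 0.657 and 4.93 ± 0.508 RPKM (adjusted p = 0.338).

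**Figure D4:**
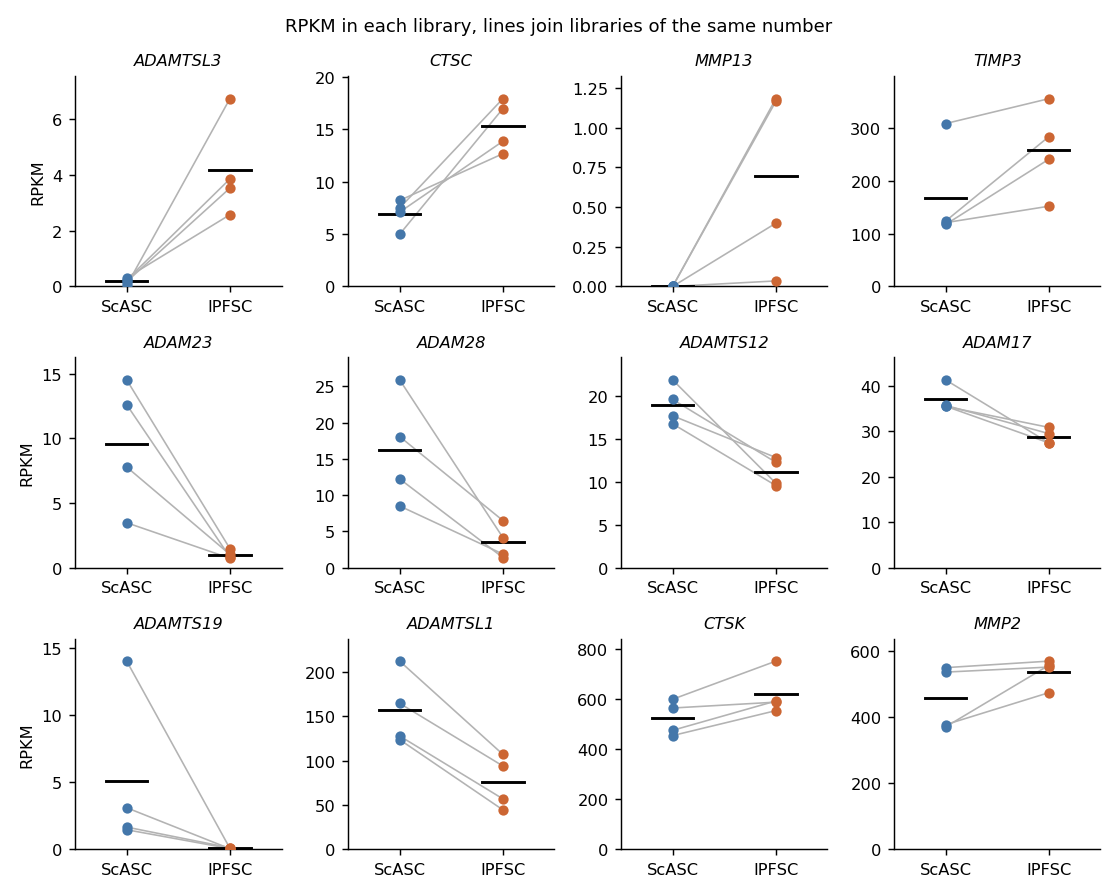
RPKM of 12 of the genes in each library (linear axes from 0), with lines joining ScASC and IPFSC libraries of the same replicate number and black bars at the means of 4. ADAMTSL3 and CTSC rise and ADAM23, ADAM28, ADAMTS12, ADAM17, ADAMTS19 and ADAMTSL1 decline in all 4 pairs, while CTSK and MMP2 overlap between the cell types.

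Of 9 cathepsins tested, CTSC rose (2.67% of all genes rose) and 8 were not called. CTSC (ENSOCUG00000014527), or dipeptidyl peptidase I, removes dipeptides and activates the serine proteases of leukocyte granules. It stood at 7.10, 7.49, 8.21 and 4.98 RPKM in ScASC libraries 1 to 4 and at 13.9, 17.9, 12.7 and 17.0 in IPFSC libraries 1 to 4. Every IPFSC library lay well above every ScASC library. The log2 fold change was 1.05 ± 0.162 (SE, adjusted p = 0.00819 in limma), and all 13 fits called it, with adjusted p from 0.00762 to 0.0259. Beside this, the macrophage and osteoclast markers summed to 11.5 to 22.2 RPKM in ScASCs and 13.2 to 27.0 in IPFSCs, with PTPRC and CD163 at 0 in every library. CTSG, a granule protease that CTSC activates, was at 0 in all libraries.

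The abundant cathepsins overlapped between the cell types. CTSK (ENSOCUG00000011090), the strongest collagen-degrading cathepsin, stood at 474, 453, 564 and 599 RPKM in ScASCs and at 592, 553, 587 and 751 in IPFSCs. Its IPFSC library 4 was the highest of all, and the log2 fold change was 0.25 (95% interval −0.05 to 0.55, adjusted p = 0.426 in limma). With the rabbit as a block the adjusted p of CTSK was 0.107. CTSV had 451 ± 104 RPKM in ScASCs against 332 ± 95.1 in IPFSCs (SD, n = 4, adjusted p = 0.383). It is a close copy of cathepsin L, so that reads of the 2 genes may have been shared in counting and its level is uncertain. CTSB, an abundant lysosomal cathepsin, stood at 134, 106, 157 and 196 RPKM in ScASCs and at 165, 128, 162 and 269 in IPFSCs. It was higher in the IPFSC library of all 4 rabbits, yet the ranges overlapped (log2 fold change 0.27, adjusted p = 0.724 in limma and 0.112 with the rabbit as a block).

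CTSZ, a carboxypeptidase, varied little between libraries, at 111 ± 5.33 RPKM in ScASCs and 125 ± 4.39 in IPFSCs. All IPFSC libraries lay above all ScASC libraries, but the difference was small and was not called (log2 fold change 0.16, adjusted p = 0.275 in limma). CTSS, typical of antigen-presenting cells, stood at 13.3, 21.6, 30.8 and 28.9 RPKM in ScASCs and at 13.01, 16.2, 14.7 and 40.8 in IPFSCs. IPFSC library 4 was far above the other 3 IPFSC libraries. The same library had the highest level of CTSA (104 RPKM), CTSB (269), CTSK (751) and CTSO (12.1). It was also the highest for the lysosomal genes PSAP (368 RPKM), LAMP1 (119), LAMP2 (64.7) and LGMN (311), which were picked out after their values were seen. Other genes of the same lists and family were not highest in that library. These were M6PR, IGF2R, GNPTAB, SORT1 and TFEB of lysosomal sorting, and the cathepsins CTSC, CTSE, CTSF, CTSV and CTSZ. LGMN belongs to a list of genes of protease activation and uptake, where RHBDF1 was also highest in that library (11.4 RPKM). FURIN, PCSK5, PCSK6, PCSK7, RHBDF2, TSPAN5, TSPAN14 and TSPAN15 of that list were not. Of the macrophage markers, CD68 and ITGAM (0.0289 RPKM) were highest in IPFSC library 4 too. CD14 stood at 1.008 RPKM there, against 0.172, 0.0898 and 0.251 in IPFSC libraries 1 to 3 and 1.058 in ScASC library 2. MARCO stood at 0.0651 RPKM there and 0.124 in IPFSC library 3. CSF1R was at its lowest there (0.0392 RPKM), and PTPRC and CD163 were at 0 in every library. CD68 stood at 10.6, 14.2, 21.5 and 19.3 RPKM in ScASCs and 13.5, 14.3, 12.7 and 25.9 in IPFSCs. The part of macrophages in these levels was not tested. CTSA, CTSF and CTSO had similar means in both cell types, at 67.3 and 67.4, 30.1 and 29.2, and 10.1 and 8.51 RPKM. CTSE reached at most 1.21 RPKM and was not tested.

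HTRA1, a secreted serine protease of matrix and growth factor turnover, was abundant in both cell types. It stood at 203, 298, 261 and 280.2 RPKM in ScASCs and at 258, 281, 206 and 311 in IPFSCs, with full overlap. The log2 fold change was 0.02 (95% interval −0.34 to 0.38, adjusted p = 0.987 in limma). The mitochondrial HTRA2 had 10.01 ± 1.20 RPKM in ScASCs and 7.89 ± 0.609 in IPFSCs (adjusted p = 0.170), and HTRA4 had 1.69 ± 0.218 and 2.04 ± 0.307 (adjusted p = 0.584). None of the 3 was called.

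The proteins that restrain, activate and carry these proteases were examined from lists outside the families. Of 5 inhibitors tested, RECK, a membrane-anchored inhibitor of MMPs, rose, and 4 were not called (2.67% of all genes rose). RECK stood at 8.16, 5.77, 4.90 and 6.64 RPKM in ScASC libraries 1 to 4 and at 18.8, 13.3, 14.0 and 11.1 in IPFSC libraries 1 to 4. The groups did not overlap (log2 fold change 1.05 ± 0.181, SE, adjusted p = 0.0129 in limma), and all 13 fits called it. Of 10 genes of activation and uptake, 2 rose, 2 fell and 6 were not called, against 2.67% and 2.31% of all genes. The proprotein convertases, which remove the propeptides of many ADAMs, ADAMTS enzymes and membrane-type MMPs, split. PCSK5 rose from 0.694, 0.362, 0.466 and 0.846 RPKM in ScASCs to 2.52, 2.14, 2.85 and 2.08 in IPFSCs (log2 fold change 1.10, adjusted p = 0.00461). PCSK6 fell from 4.80, 5.55, 6.18 and 4.96 RPKM to 2.51, 2.58, 2.06 and 2.94 (log2 fold change −0.86, adjusted p = 0.00582). Both were called in all 13 fits, while FURIN itself was not called (log2 fold change 0.00, 0.0037 before rounding, adjusted p = 0.997).

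The tetraspanins that carry ADAM10 to the cell surface split as well, while ADAM10 was not called. TSPAN15 stood at 1.32, 0.661, 3.93 and 2.65 RPKM in ScASCs and at 7.06, 4.84, 13.8 and 11.8 in IPFSCs. All IPFSC libraries were higher (log2 fold change 1.75 ± 0.396, SE, adjusted p = 0.0416 in limma, 0.000672 with the rabbit as a block), but the call held in only 5 of 13 fits. It was lost without ScASC library 1, 2 or 4 (adjusted p = 0.0882, 0.0990 and 0.0725 in limma), without IPFSC library 1, 3 or 4 (0.0831, 0.119 and 0.0895), with a pseudocount of 0.1 (0.0518) and without the filter on low RPKM (0.0645). TSPAN14 stood at 34.0, 24.8, 18.4 and 29.5 RPKM in ScASCs and at 14.5, 13.7, 11.6 and 12.3 in IPFSCs. It was lower in all IPFSC libraries (log2 fold change −0.95 ± 0.175, SE, adjusted p = 0.0169), and its call was lost without ScASC library 4 (0.0538) or IPFSC library 3 (0.0623), within a range of 0.00599 to 0.0623. None of the 8 genes of lysosomal sorting, such as the mannose 6-phosphate receptors M6PR and IGF2R, was called.

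Of 10 matrix substrates tested, 2 rose, 1 fell and 7 were not called, against 2.67% and 2.31% of all genes. ACAN, the cartilage proteoglycan cut by ADAMTS4 and ADAMTS5, stood at 3.30, 1.77, 3.32 and 1.65 RPKM in ScASCs and at 33.3, 19.6, 11.7 and 5.69 in IPFSCs. All IPFSC libraries were higher, over a wide range (log2 fold change 2.19 ± 0.455, SE, adjusted p = 0.0291 in limma), and the call held in 7 of 13 fits, being lost without ScASC library 2, 3 or 4 (0.0895, 0.0526 and 0.0812) or IPFSC library 1, 2 or 3 (0.0505, 0.0785 and 0.0716). FN1 (fibronectin) rose from 883, 649.8, 634 and 1025 RPKM to 1181, 1453, 1902 and 2463 (log2 fold change 1.11, adjusted p = 0.0409). COL3A1 (type III collagen) fell from 4990, 5541, 8080 and 6496 RPKM to 3778, 2753, 3031 and 4347 (log2 fold change −0.85, adjusted p = 0.0461). The calls of FN1 and COL3A1 held in 5 of 13 fits each. That of FN1 was lost without ScASC library 1, 2 or 3 or IPFSC library 2, 3 or 4 (adjusted p from 0.0606 to 0.122 in limma), without the filter on low RPKM (0.0727) and with median-ratio scaling (0.0515), and over all fits its adjusted p was 0.0181 to 0.122. That of COL3A1 was lost without ScASC library 2, 3 or 4 or IPFSC library 1, 2 or 3 (0.0912 to 0.135), without the filter (0.197) and with median-ratio scaling (0.0579), and over all fits its adjusted p was 0.0286 to 0.197. With the rabbit as a block 3 substrates rose and 4 fell (4.31% and 3.74% of all genes), with BGN added to those higher (0.0387) and COL1A1, COL1A2 and COL2A1 to those lower (0.0328, 0.0449 and 0.0154). For COL2A1 the direction is opposite to the study's quantitative PCR before induction, which gave a higher level in IPFSCs. For ACAN that PCR gave the same direction as found here. The study induced passage 2 cells and sequenced passage 1 cells, and the passage used for that PCR is not clear.

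**Figure D5:**
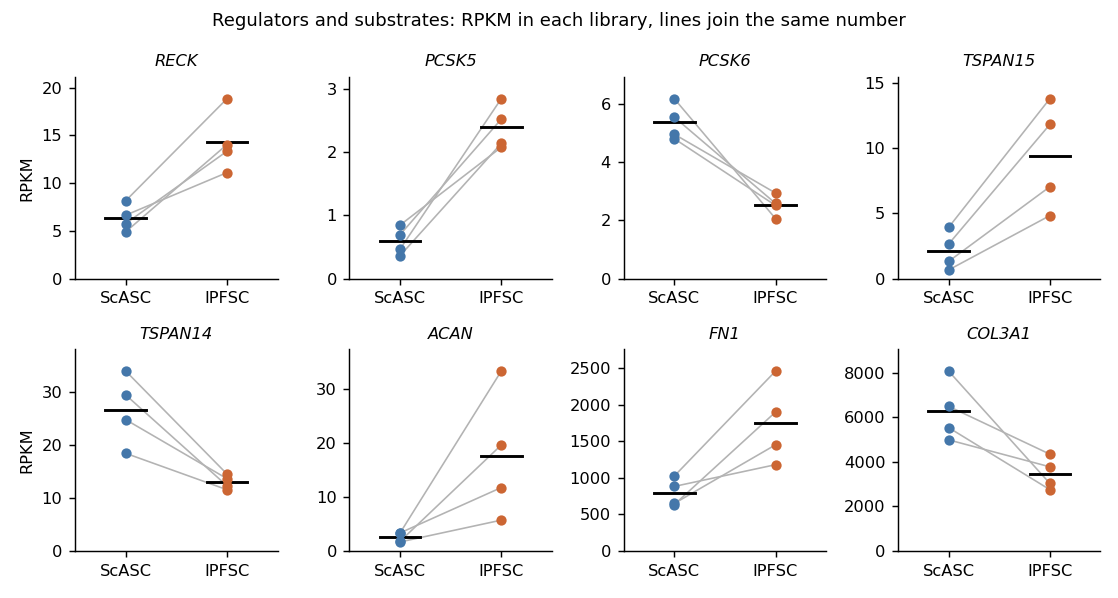
RPKM of 8 regulators and matrix substrates in each library (linear axes from 0), with lines joining the same replicate number and black bars at the means of 4. RECK, PCSK5, TSPAN15, ACAN and FN1 are higher and PCSK6, TSPAN14 and COL3A1 lower in the IPFSC library of every pair.

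The spread between libraries of 1 cell type was set beside that of all genes. The median SD within a cell type was 0.35 on log2(RPKM + 1) for the 46 tested genes and 0.20 for all 11294 genes. This is a description, since level and family membership were not matched.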

How the data were processed

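Values for 4 ScASC and 4 IPFSC libraries were deposited by the authors as log2(RPKM + 1), with 1e-05 in place of 0. Per the labels and the study's methods, reads of stranded mRNA libraries were aligned to OryCun2.0 with Subread and counted with featureCounts, and the authors computed RPKM from these counts. Use of strand in counting is not given in the sources used here. Deposited columns of the authors' own fold changes and p-values were not used. Of 20595 rows, 9 duplicates were dropped. Total counts were not used, and steps in low RPKM gave relative depth only, so no counting intervals are given. RefSeq (mOryCun1.1) held 71 of the 74 symbols and served for gene order alone.

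Genes with a mean above 1 RPKM in at least 1 cell type were tested with limma 3.58.1 in R 4.3.3 (variance trend, Benjamini-Hochberg adjustment), after tests on simulated data. The authors used edgeR, for which no counts were analysed here. Alternatives were a rabbit block, a pseudocount of 0.1, no filter on low RPKM, median-ratio scaling, and each library left out. Only the block fit used the pairing by rabbit, and every other fit took the libraries as unpaired. The study describes donor-matched cells, and deviations of same-numbered libraries correlated at 0.534, 0.550, 0.253 and 0.659 (11294 genes), so numbers were taken as rabbits. Some libraries of unlike number also correlated, ScASC library 1 with IPFSC library 2 at 0.335 and ScASC library 3 with IPFSC library 4 at 0.329. Both values lay above the 0.253 of the libraries numbered 3.

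Named with values were genes called with or without the block, the 3 most abundant of each family, the inhibitors, collagenases, gelatinases, stromelysins and main aggrecanases and cathepsins, and called genes of the outside lists. MMP28, ADAMTS17, CTSZ and the other tested genes were added after their values were seen. Genes and lists were chosen with earlier results of these data known.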

Additional observations from a re-analysis of the deposited data

Results flagged for a closer look

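In 8 of 72 sets of 4 libraries tested, 1 library lay far from the other 3 by Dixon's criterion, which chance meets in about 1 in 20. ScASC library 4 was the high one for ADAM17 (41.3 RPKM, the others 35.4 to 35.7), for ADAMTS19 (14.0, the others 1.43 to 3.07) and for MMP11 (33.0, the others 16.8 to 17.3). ScASC library 1 was the high one for ADAMTS5 (32.6 RPKM, the others 11.8 to 13.4) and for TIMP3 (308, the others 117 to 124). IPFSC library 4 was the high one for ADAM9 (257 RPKM, the others 157 to 160.1), for CTSS (40.8, the others 13.01 to 16.2) and for MMP1 (0.388, the others 0 to 0.0568).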

How the results depend on the processing

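ADAMTSL3, CTSC, ADAM23 and ADAMTS12 were called in all 13 fits. With the rabbit as a replicate block, the genes lower in IPFSCs by the study's criteria went from 2 to 4, and at an adjusted p under 0.05 from 4 to 5. The block ended the call of ADAM17 and added ADAMTS19 and ADAMTSL1, and it changed no other call among the 46 genes. Without the filter on low RPKM, 1 gene was lower with a fold change above 2. Leaving out 1 library at a time, the genes lower numbered 2 to 3 at an adjusted p under 0.05 and 1 to 2 by the study's criteria, and the genes higher by the study's criteria 1 to 2. Without ScASC library 4, IPFSC library 2 or IPFSC library 4, 1 gene was higher by those criteria. Without ScASC library 1 or 2 or IPFSC library 1, 3 or 4, 2 genes were lower at an adjusted p under 0.05 and 1 by those criteria. Of the 46 tested genes, 10 uncalled ones had a log2 fold change near 0 that changed sign when a library was left out, between −0.12 and 0.0034 for ADAM10, −0.22 and 0.16 for ADAM22, −0.066 and 0.060 for ADAMTS2, −0.16 and 0.18 for ADAMTS4, −0.33 and 0.12 for ADAMTS9, −0.19 and 0.24 for CTSA, −0.15 and 0.052 for CTSF, −0.096 and 0.13 for HTRA1, −0.083 and 0.36 for MMP11, and −0.054 and 0.017 for MMP15. With a pseudocount of 0.1, that of ADAM22 was 0.0094. The cause was not tested. Depth per library is known only in relative terms, so levels under 1 RPKM carry no counting interval, and 4 rabbits limit every test.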

Other observations

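ADAM2, known as the beta subunit of sperm fertilin, was listed at 4.55, 5.90, 9.99 and 10.005 RPKM in ScASC libraries 1 to 4 and at 5.97, 7.21, 9.67 and 22.5 in IPFSC libraries 1 to 4. Other ADAMs known from testis and epididymis, ADAM7, ADAM18, ADAM21 and ADAM30, did not exceed 0.366 RPKM in any library.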
